A study of Caenorhabditis elegans with 2 samples.

Results

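The GABA neuron identity genes are 7 genes (unc-25, unc-47, unc-46, snf-11, unc-49, unc-30 and lim-6) of the 19973 protein-coding genes annotated on the nuclear chromosomes of C. elegans, chosen because they act in making, handling or sensing the inhibitory transmitter GABA or in specifying the neurons that use it. For each gene, every region of enrichment that touched the gene body or 5000 bp on either side was taken from 4 deposited lists, whatever its strength. They come from ChIP-seq, the sequencing of DNA precipitated with a chromatin protein, here AHR-1, the worm aryl hydrocarbon receptor, a bHLH-PAS transcription factor. AHR-1-GFP late embryos formed the only group, in 2 biological replicates; without a second condition, the question is where the tagged protein was found around these genes. The hermaphrodites were of strain OP562, genotype unc-119(tm4063) III; wgIs562, an insertion that supplies AHR-1 with GFP and FLAG at its C-terminus. Bleaching of eggs set the start of the culture, embryos were taken 3.5 h later, chromatin of whole organisms was sonicated, and an antibody to GFP was used for precipitation. The sources used here do not say in which cells the tagged protein was made, nor its level beside endogenous AHR-1.

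GABA is made by glutamic acid decarboxylase, loaded into vesicles by a dedicated transporter, cleared by a transporter of the plasma membrane, and sensed by ligand-gated chloride channels. In C. elegans most GABA neurons are motor neurons of the D type in the nerve cord and RME type in the head. AHR-1 is known from mutants to separate the left and right RME cells from the dorsal and ventral ones, and UNC-30, a Pitx-type homeodomain protein, switches on unc-25 and unc-47 in D-type neurons through sites of the form TAATCC. The material was whole embryos, in which any of these neurons already formed are a small share of the cells, so a region may come from any tissue.

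The sequences below are the summits on which the results turn: the one promoter region of the 7 genes that held the AHR core letters, an intronic region of unc-30 with the same letters, and the strongest regions of unc-25 and unc-49. All are on build ce11 (WBcel235), read 5′ to 3′ on the strand of the gene, 100 bp to each side of the summit. In the unc-47 and unc-30 windows, capitals mark GCGTG, the core bound by the aryl hydrocarbon receptor with its partner, here on the opposite strand and so printed CACGC, and at unc-47 also TAATCC. In the unc-25 and unc-49 windows, capitals mark TTAGGC, the unit of the worm telomere repeat, printed GCCTAA where it lies on the opposite strand. The short sequence is the GCGTG site of unc-25 with 15 bp on each side.
unc-47, chrIII:10186263-10186463, minus strand, ends 3 bp before the gene start: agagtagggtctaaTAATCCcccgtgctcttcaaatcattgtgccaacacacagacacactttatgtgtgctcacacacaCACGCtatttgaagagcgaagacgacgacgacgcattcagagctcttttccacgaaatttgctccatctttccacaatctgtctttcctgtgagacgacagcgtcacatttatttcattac
unc-30, chrIV:13122971-13123171, plus strand, intron: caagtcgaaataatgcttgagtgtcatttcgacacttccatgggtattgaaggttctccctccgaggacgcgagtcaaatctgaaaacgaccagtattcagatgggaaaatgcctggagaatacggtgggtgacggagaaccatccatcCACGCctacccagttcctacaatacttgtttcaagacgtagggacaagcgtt
unc-25, chrIII:12945003-12945203, plus strand, intron and part of an exon: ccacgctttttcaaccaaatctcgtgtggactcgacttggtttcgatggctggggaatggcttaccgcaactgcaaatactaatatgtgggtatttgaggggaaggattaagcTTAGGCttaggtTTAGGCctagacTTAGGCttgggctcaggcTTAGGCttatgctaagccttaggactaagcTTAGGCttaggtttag
unc-49, chrIII:10521235-10521435, plus strand, intron: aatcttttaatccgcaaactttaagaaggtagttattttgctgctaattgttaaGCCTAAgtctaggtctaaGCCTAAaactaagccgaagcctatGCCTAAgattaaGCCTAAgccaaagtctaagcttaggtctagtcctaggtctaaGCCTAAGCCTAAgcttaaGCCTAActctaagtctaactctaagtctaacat
unc-25, chrIII:12944989-12945023, plus strand: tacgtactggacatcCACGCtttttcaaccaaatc

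The lists differ in how much they hold. Before any threshold, 22949 regions were listed for replicate 1 and 23313 for replicate 2, and calling on both replicates together gave 13858 pooled regions. The IDR list, thresholded on how alike regions rank in replicates, held 479 regions, the same as the pooled regions of rank 1 to 479. Signals are the authors' own and have a separate scale in each list, so ranks (1 is the strongest) are given beside them. The sources used here state no read depth. Pooled signals ranged from 26.7 to 1026 with a median of 32.8, and the lowest IDR signal was 69.2.

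No IDR region touched the window of any of the 7 GABA genes, while 7.18% of all coding genes had one within the same distance. Regions below that limit were present at 6 of the 7 genes in the pooled list, against 77.1% of all coding genes. Replicate 1 had a region at 6 of the 7 genes, where 90.9% of coding genes had one, and replicate 2 had one at all 7, where 91.8% did. Having a region in these lists is therefore the rule across the genome, and the counts for the 7 genes lie close to the share of all coding genes. The gene with no pooled region was unc-46. A pooled summit from 1500 bp upstream to 500 bp downstream of a coding 5′ end was found at 3 of the 7 genes (unc-25, unc-47 and unc-49), against 29.9% of coding genes.

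The windows of the 7 genes held 26 pooled regions in 109.4 kb, or 0.238 per kb, beside a mean of 0.141 per kb over the windows of all coding genes. In replicate 1 they held 38 regions, 0.347 per kb beside 0.234, and in replicate 2 they held 28 regions, 0.256 per kb beside 0.238. The excess over the mean was thus seen in replicate 1 and in the pooled list, and was small in replicate 2. It was uneven between genes, with unc-25 alone holding 9 of the 26 pooled regions. The pooled density was 0.522 per kb at unc-25, 0.294 at lim-6, 0.273 at unc-49 and 0.194 at unc-30. It was 0.16 at unc-47, 0.075 at snf-11 and 0 at unc-46. The 26 pooled regions form 22 separate stretches once regions that overlap are joined. Their signals lay between 26.8 and 58.5 with a median of 34.4, and their median rank was 5767, against 6929.5 for the pooled list as a whole. The authors' q values of the 26 regions ran from 0.0634 to 0.957. For the strongest region of each gene, q was 0.0634 at unc-25, 0.128 at lim-6 and 0.493 at unc-49. It was 0.557 at unc-47, 0.722 at unc-30 and 0.938 at snf-11. Of the 26 summits, 17 lay nearer to a 5′ end of the GABA gene than to that of any other coding gene, and 11 lay inside the gene body. The windows are laid around the genes, and no share over all coding gene windows is given, so both counts are descriptions.

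**Figure D1:**
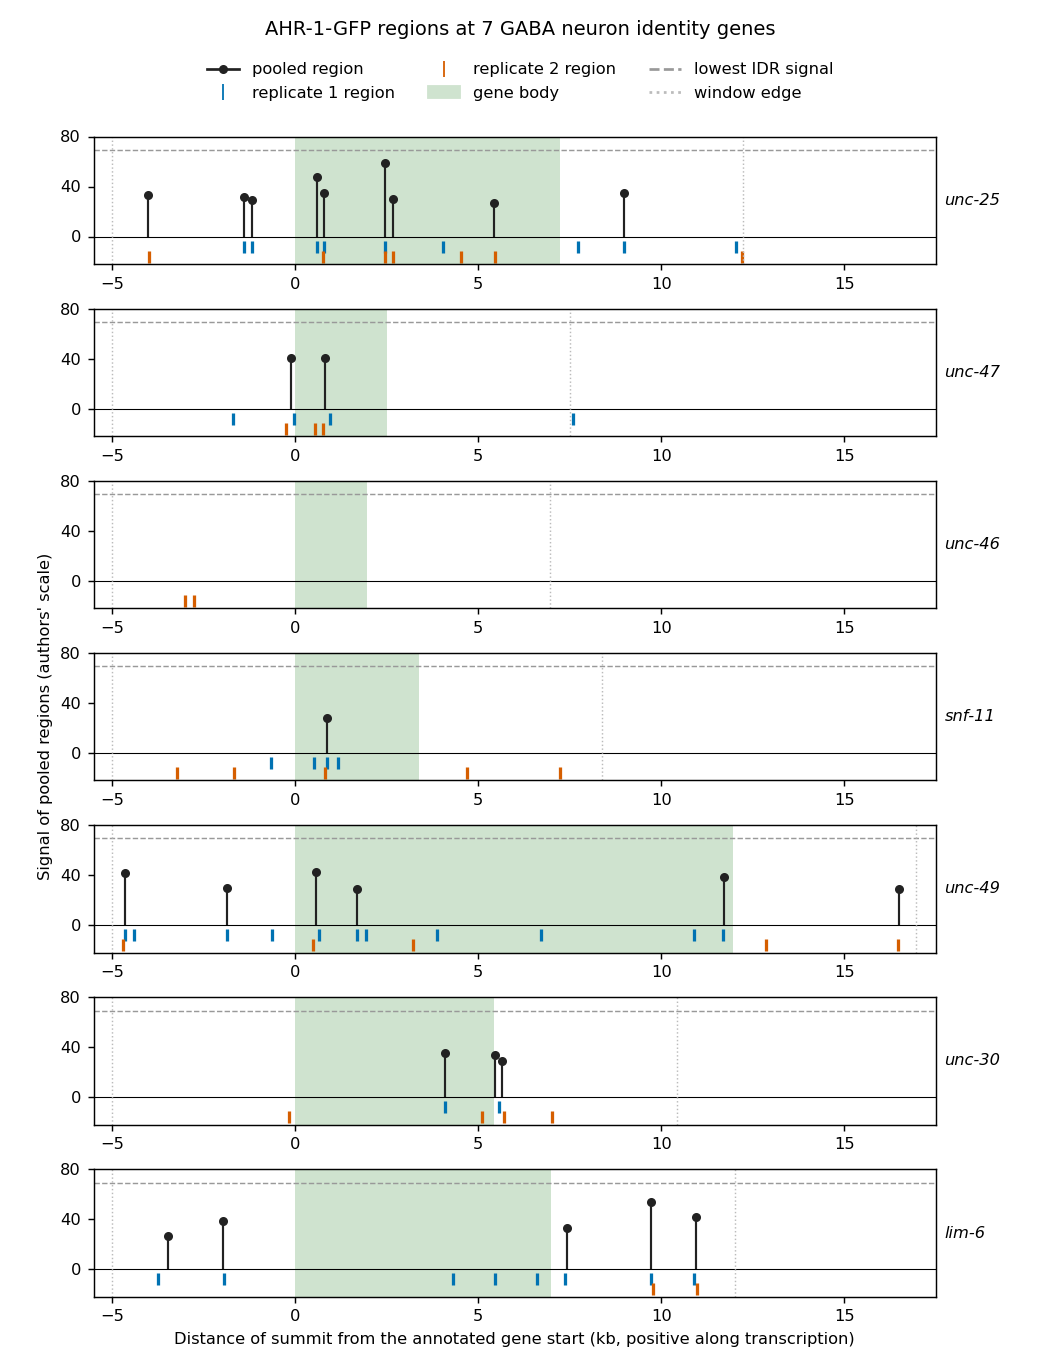
Position and signal of regions around each of the 7 genes. The horizontal axis is the distance of the summit from the annotated gene start in kb, positive in the direction of transcription. Black stems give the pooled signal, blue and orange ticks mark regions of replicate 1 and replicate 2, the green band is the gene body, dotted lines are the window edges and the dashed line is the lowest IDR signal, 69.2. All 26 stems end below the dashed line, the highest being unc-25 at 58.5, and unc-46 has ticks from replicate 2 alone.

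**Figure D2:**
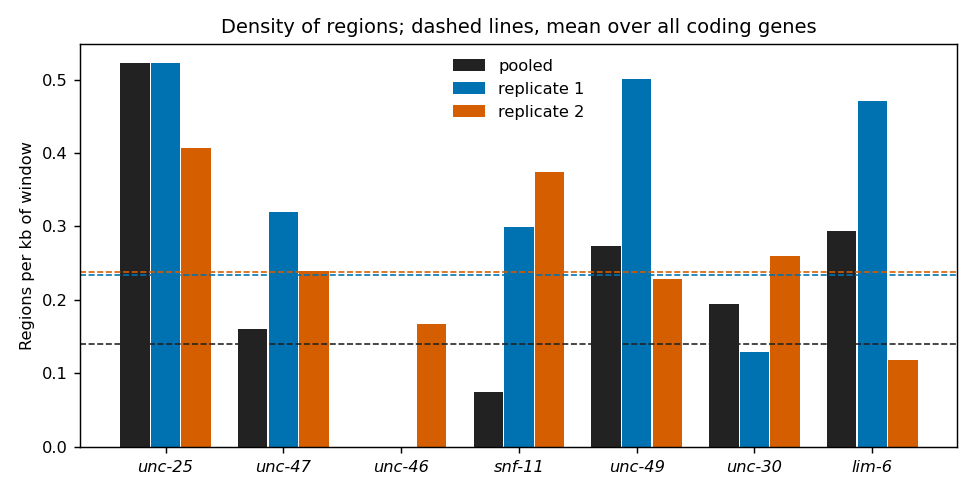
Regions per kb of window at each gene in the pooled list (black), replicate 1 (blue) and replicate 2 (orange), with dashed lines at the means over all coding genes. The bars of unc-25 are above their dashed lines in all 3 lists, and for unc-49 and lim-6 the replicate 1 bar is the tallest while the replicate 2 bar is below its line.

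Unc-25 (WBGene00006762, chrIII:12942651-12949883, plus strand) encodes glutamic acid decarboxylase, which makes GABA, and in the pooled list had the most regions and the strongest one of the 7 genes. In replicate 1, unc-49 had more regions (11) and unc-30 the strongest one. Its window held 9 pooled regions in 6 separate stretches, 9 regions in replicate 1 and 7 in replicate 2. Among the 4004 coding genes with a window of like length (the shorter at least 0.8 times the longer), the median was 2 pooled regions, and 1.17% had 9 or more. Pooled regions covered 19.1% of the unc-25 window, each base counted once. The summed widths of all pooled regions, with overlaps counted each time, came to 6.13% of the genome. Of the 9 summits, 4 lay in introns of unc-25, 1 in its coding sequence, 3 in the upstream neighbour epg-3 (an autophagy gene) and 1 in the coding sequence of Y39E4A.1 downstream.

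The strongest region of unc-25 had its summit in an intron, 2452 bp downstream of the gene start, with a pooled signal of 58.5 at rank 718 and a q value of 0.0634. It was found in both replicates at nearly the same base: replicate 1 had a signal of 32.7 at rank 1376 with the summit 5 bp away, and replicate 2 had 26.8 at rank 740 with the summit 6 bp away. Of all coding genes, 9.84% had a region at least as strong in their window, and of genes with a window of like length 13.9% did. A second intronic region, 594 bp downstream of the start, had a pooled signal of 47.3 at rank 1469. It was overlapped at rank 3274 in replicate 1, with the summit at the same base, and at rank 1710 in replicate 2, with the summit 162 bp away. That replicate 2 summit was nearer, at 41 bp, to the next pooled summit, 797 bp downstream of the start with a signal of 35. Upstream, the region with its summit 1381 bp before the start had a pooled signal of 31.9, rank 1709 in replicate 1 and no overlapping region in replicate 2. That upstream summit lies in the 3′ UTR of epg-3. The promoter region of unc-25 therefore rested on replicate 1, whereas its intronic pooled regions were overlapped in both. The weakest of these, 2674 bp downstream with a signal of 29.9, was overlapped in replicate 1 only by the region of the strongest summit, 217 bp away. Intronic regions at rank 7720 in replicate 1 and rank 8235 in replicate 2 were each in 1 replicate alone and had no pooled region.

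The sequence just downstream of the strongest unc-25 summit is made largely of TTAGGC-like units, and the sequence upstream of it holds no exact copy within 100 bp. The 5 exact copies within 100 bp all lie downstream, the nearest centred 15 bp from the summit. The overlapping region next to it, signal 29.9, holds 7. The window also contains TAATCC, the form of site that UNC-30 binds, 6 bp from the summit, and GCGTG 97 bp from it. Which of these letters, if any, AHR-1 met there was not tested. The sources used here do not say how reads that map to several places were treated, and imperfect repeats of this kind can share reads with other copies.

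Unc-47 (WBGene00006783, chrIII:10183762-10186260, minus strand) encodes the vesicular GABA transporter. Its 2 pooled regions had almost the same signal, 40.2 at rank 2975 with the summit 103 bp upstream of the gene start, and 40.7 at rank 2826 with the summit 810 bp downstream, in the coding sequence. The replicates disagreed on which was strong. The promoter region ranked 1674 in replicate 1, with a signal of 31.3, and 15116 in replicate 2, with a signal of 12. The downstream region ranked 22051 in replicate 1, with a signal of 15.6, and 1765 in replicate 2, with a signal of 21.3. The summits of the promoter region also lay apart, 67 bp from the pooled summit in replicate 1 and 152 bp in replicate 2. Of all coding genes, 29.1% had a region at least as strong as the stronger of the 2.

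The promoter region of unc-47 was the only one of the 26 with the longer AHR core TNGCGTG (the first N being A) within 100 bp of its summit. This site is centred 17 bp from the pooled summit and 120 bp upstream of the gene start, on the strand opposite to the gene. TAATCC lies in the same window, centred 186 bp upstream of the start and on the strand of the gene. Over all pooled regions, 4.68% held TNGCGTG and 6.24% held TAATCC within 100 bp. Measured from the summit of replicate 1 this site is 84 bp away, and from that of replicate 2 it is 135 bp away.

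Unc-46 (WBGene00006782, chrV:5097075-5099025, minus strand) encodes a LAMP-like protein that brings the vesicular transporter to synaptic vesicles. It had no pooled region and none in replicate 1, and 25.5% of genes with a window of like length had no pooled region either. Replicate 2 had 2 regions in the window, with signals of 16.2 at rank 5587 and 10.4 at rank 21965. Their summits were 2991 bp and 2750 bp upstream of the unc-46 start, in an intron of srab-1, a chemoreceptor-family gene. Neither was overlapped in the other replicate.

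Snf-11 (WBGene00004910, chrV:11305070-11308446, minus strand) encodes the plasma membrane GABA transporter. Its single pooled region, in an intron 860 bp downstream of the start, was weak, with a signal of 28.2 at rank 11743. At about the same base, replicate 1 had a region with a signal of 17.3 at rank 16852. A stronger replicate 1 region that also overlapped it, with a signal of 23.1 at rank 6469, had its summit 301 bp away. In replicate 2 the overlapping region had a signal of 10.1 at rank 23140 and its summit 46 bp away. Of all coding genes, 71.3% had a region at least as strong. Yet the nearest IDR region to any of the 7 genes lay beside this one, at chrV:11314156-11314268, 710 bp outside the window and 5780 bp upstream of the snf-11 start. That region had a pooled signal of 234.1 at rank 20 and lies in an intron of cutl-18, within 250 bp of the snoRNA gene T03F7.8. Only 6.38% of coding genes had an IDR summit nearer to their start than snf-11 did.

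Unc-49 (WBGene00006784, chrIII:10520762-10532705, plus strand) encodes the subunits of the GABA-A receptor of body wall muscle and is the longest of the 7. It had 6 pooled regions, 11 in replicate 1 and 5 in replicate 2. The strongest, in an intron 573 bp downstream of the gene start, had a pooled signal of 42.2 at rank 2409. In replicate 1 the overlapping region had a signal of 24.6 at rank 5005, and in replicate 2 a signal of 23.7 at rank 1168. Next came a region in an intron of the neighbour sly-1, 4634 bp upstream, at 41.4, and one in the coding sequence near the 3′ end of unc-49, at 38.5. The second of these ranked 3417 in replicate 1 and was missing from replicate 2. The other 3 regions had signals from 28.6 to 29.4, and each was found in 1 replicate. Of genes with a window of like length, 40.2% had a region at least as strong as the strongest of unc-49.

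The unc-49 intron summit lies on a TTAGGC tract, with 7 copies within 100 bp of the summit, on the strand opposite to the gene. TAATCC is found 91 bp from the pooled summit. The replicate summits fell on either side of the pooled one, 81 bp away in replicate 1 and 75 bp away in replicate 2, with the nearest copy centred 11 bp and 31 bp from them in that order. The 3 repeat regions (2 that overlap each other at unc-25, 1 at unc-49) are 11.5% of the 26. Of all pooled regions, 7.4% held 1 or more copies, the count used for the other motifs, and 1.09% held 3 or more. Repeats of this kind did not go with high signal over the genome: pooled regions with 3 or more copies had a median signal of 32.8, the same as those with fewer, and 0 of the 479 IDR regions held 3 or more. This repeat was looked for after the sequences of these summits had been read, so its share among the 26 regions is a description.

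**Figure D3:**
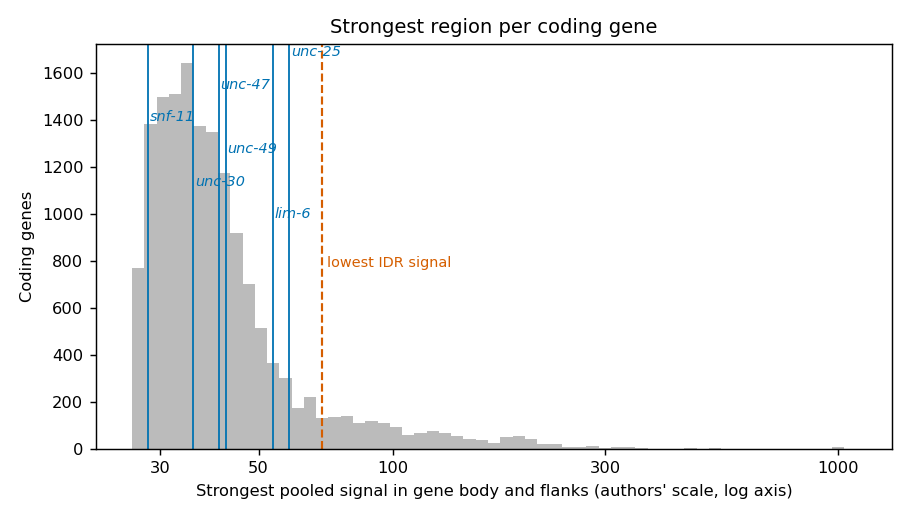
Distribution of the strongest pooled signal in the window of each coding gene that had one, on a logarithmic axis of the authors' signal, with blue lines at the 6 GABA genes that had one and an orange dashed line at the lowest IDR signal. Unc-25 at 58.5 and lim-6 at 53.8 stand to the right of the bulk, unc-47, unc-49 and unc-30 within it, and snf-11 at 28.2 on its left side.

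Unc-30 (WBGene00006766, chrIV:13118977-13124406, plus strand) encodes the homeodomain regulator of D-type GABA neurons. No other gene overlaps its window, piRNA genes being left out of this count, and its 3 pooled regions were all nearest to it among coding genes. The strongest lay in an intron 4094 bp downstream of the start, with a pooled signal of 35.6 at rank 4965. In replicate 1 this was the best-ranked region of all 7 genes, with a signal of 34.4 at rank 1096 and the summit 6 bp from the pooled one, yet replicate 2 had no region overlapping it. GCGTG lies 51 bp from its summit. The other pooled regions overlap each other at the 3′ end of the gene, with signals of 33.8 and 29.1, and both were overlapped by the same region of replicate 1 (rank 6567) and of replicate 2 (rank 6215). The replicate 1 summit lay 127 bp and 76 bp from the pooled ones, and the replicate 2 summit 254 bp and 51 bp. A region at the start of unc-30 was found in replicate 2 alone, 161 bp upstream, at rank 23117. Of all coding genes, 43.4% had a region at least as strong as the strongest of unc-30.

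Lim-6 (WBGene00002988, chrX:1072452-1079452, plus strand) encodes a LIM homeodomain regulator of RME and other GABA neurons. None of its 5 pooled regions had its summit in the gene body or lay nearest to lim-6: each was nearer to mksr-1, a gene of the ciliary transition zone, or to pfn-3, a profilin gene. The strongest, with a pooled signal of 53.8 at rank 919, lies between genes, 9714 bp downstream of the lim-6 start and 1517 bp upstream of pfn-3. It was found in both replicates, with a signal of 31.4 at rank 1658 in replicate 1 and 20.4 at rank 2124 in replicate 2, and holds neither GCGTG nor the E-box, the UNC-30 form or the telomere unit within 100 bp. Another region upstream of pfn-3 had a pooled signal of 42.1, at rank 1967 in replicate 1 and 11203 in replicate 2. The region closest to the lim-6 start, 1955 bp upstream with a signal of 38.7, was found in replicate 1 and not in replicate 2. Within the gene body, replicate 1 alone had regions, at ranks 14307, 19112 and 22353. Although 12% of coding genes had a region as strong as the best at lim-6, that region is assigned to pfn-3 by distance.

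Set side by side, unc-25 had the strongest pooled region at 58.5, followed by lim-6 at 53.8, unc-49 at 42.2, unc-47 at 40.7, unc-30 at 35.6 and snf-11 at 28.2. The median over these 6 genes was 41.4, beside 37.1 over all coding genes that had a region, and their windows were longer, with a median of 15.4 kb over the 7 beside 12 kb. The order was not the same in the replicates. By best rank, replicate 1 placed unc-30 first (1096), then unc-25 (1376), lim-6 (1658), unc-47 (1674), unc-49 (3417) and snf-11 (6469). Replicate 2 placed unc-25 first (740), then unc-49 (1168), unc-47 (1765), lim-6 (2124), unc-46 (5587), unc-30 (6215) and snf-11 (6851). Unc-25 was first or second in both, and the largest change of place was that of unc-30. With 1 value per replicate and separate scales, no spread can be set on the differences between neighbours in these orders.

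Of the 26 pooled regions, 13 were overlapped by a region in both replicates, against 55.3% of all pooled regions. Replicate 1 had an overlapping region for 23 and replicate 2 for 16, against 83.7% and 70.5% of all pooled regions. The regions matched in both came from all 6 genes with a pooled region, 4 of them at unc-25, 1 at snf-11 and 2 at each of unc-47, unc-49, unc-30 and lim-6. At unc-25 and unc-30, overlapping pooled regions shared their best-ranked replicate regions, so these matches are not all separate. Starting from the replicate lists, 15 of the 38 regions of replicate 1 were overlapped by one of replicate 2, beside 40.6% of the whole list, and 13 of the 28 of replicate 2 by one of replicate 1, beside 39.3%. The agreement of the replicates at the GABA genes was thus about that of the lists at large.

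**Figure D4:**
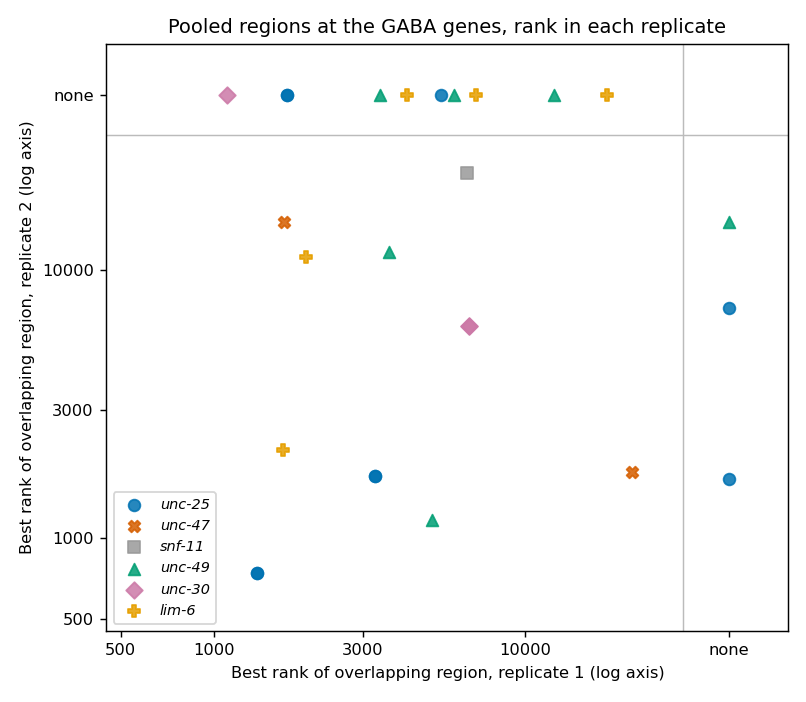
Best rank of an overlapping region in replicate 1 (horizontal) and replicate 2 (vertical) for the 26 pooled regions, on logarithmic axes where 1 is the strongest and the outer strips hold regions with no overlap. The regions fall on 22 points, since neighbouring regions can overlap the same replicate region. The strongest unc-25 region is at the lower left, the unc-30 intron region is in the upper strip, and the unc-47 pair stand at opposite corners of the middle.

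GCGTG was found within 100 bp of the summit in 3 of the 26 regions (at unc-25, unc-47 and unc-30), against 16.9% of all pooled regions. For 2 of the 6 genes with a pooled region, unc-25 and unc-30, the strongest region held it, against 19.3% of all coding genes with a region. The share was 40.3% in the IDR list and 16% in the pooled regions below its limit, to which all regions of the GABA genes belong. The E-box CACGTG, a site of other bHLH factors, was found in 2 of the 26 regions, in the coding sequence of unc-25 and upstream of unc-49, against 3.85% of pooled regions. TAATCC was found in 3, at unc-25, unc-47 and unc-49, against 6.24%. Each motif was searched on both strands, GCGTG is contained in TNGCGTG, and none of these sequences shows which protein was bound. The median GC content within 100 bp of the summits was 40.8% at the GABA genes, 43.8% in the IDR list and 38.8% in the pooled list.

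Around the annotated gene starts, from 250 bp upstream to 50 bp downstream, GCGTG is present at unc-25, unc-47 and unc-49, against 19.1% of all coding genes. Only that of unc-47 lay within 100 bp of a pooled summit. TAATCC is present in the same window at unc-25, in 2 copies, and at unc-47 and unc-30, against 9.37% of coding genes, and CACGTG at none of the 7, against 5.82%.

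By annotation, 10 of the 26 summits lay in introns, 7 in coding sequence, 7 between genes and 2 in 3′ UTRs. Over all pooled regions the shares were 36.2% in introns, 21% in coding sequence, 35.1% between genes and 2.53% in 3′ UTRs. None of the 26 summits lay within 250 bp of a tRNA, snoRNA, snRNA or miRNA gene. No share over all pooled regions is given for this count, so it is not read as a trait of these genes.

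A wider list of 22 genes of GABA biology held 1 gene with an IDR region, 19 with a pooled region and 8 with a pooled summit at the promoter, where all coding genes had 7.18%, 77.1% and 29.9%. The gene with an IDR region was nhr-67, a nuclear receptor regulator of RME neurons, with a signal of 75.2 at rank 413, in a region that holds GCGTG and lies nearest to cpt-2, 411 bp upstream of it. All 7 further receptor genes had a pooled region, with strongest signals from 29.3 to 60.1, the highest in an intron of gab-1, a GABA-A receptor subunit. Their windows were long, with a median of 18 kb beside 12 kb over all coding genes, of which 77.1% had a pooled region. Of the 4 genes for receptor clustering, 3 had one, from 32.2 to 35.8, and of the metabolic genes alh-7 had one at 46.3 and gta-1, the GABA transaminase, had none. All 3 UNC-30 targets had one, the strongest being ttr-39 at 68.3, just below the IDR limit and nearest to ndc-80, 269 bp upstream of that gene. The median strongest signal of the wider list was 35, below that of the 6 GABA identity genes at 41.4. Touch receptor neuron genes had a median of 43.3 over the 7 of 9 with a region and no IDR region, and genes of other transmitters a median of 40.1 over 10 of 10, with IDR regions at 2, again beside 77.1% and 7.18% of all coding genes. In the second of these lists unc-17 and cha-1, which overlap, share their strongest region, so it enters the median once for each. The IDR region at cat-1 lay in an intron of that gene, within 250 bp of a tRNA, snoRNA, snRNA or miRNA gene. The one at cat-2 lay in an intron of scc-2, the gene it was nearest to.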

How the data were processed

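ChIP-seq region lists of 2 replicates, of both pooled, and of the IDR step were used, all on build ce11. Per the deposited file descriptions, regions were called by the authors for single replicates and for pooled reads, with a control library that was not analysed here. The aligner, caller, settings, IDR threshold and depth were not given in the sources used. Each deposited region carries a signal and a −log10 q value of the authors' own. The label for the antibody names ahr-1, while the description names GFP, which was followed.

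Regions were joined to the Ensembl release 115 annotation and RefSeq sequence of WBcel235, whose chromosome lengths fit the coordinates, with Python 3.11.15, numpy 2.4.6, pandas 2.3.3 and matplotlib 3.10.9. An overlap was at least 1 bp. Distances run from the annotated gene start, and promoters from any coding 5′ end. There is 1 group, so no test was made: counts stand beside the share over all coding genes or regions, except where no share is given. Named genes are the 7 members, all IDR-bound members of the wider list and its 3 strongest. Members and lists were chosen with earlier results of these data known, and neighbours were named by distance. The genes alh-7, gta-1, unc-17, cha-1, cat-1 and cat-2 were named after their values were seen. Where several replicate regions overlap a pooled region, ranks are of the strongest unless stated. The counts of regions in gene windows and the search for GCGTG and TNGCGTG were checked on simulated data. The promoter counts and the matching of replicates were not checked in this way. Alternatives were other flanks, promoter windows, overlaps and motif windows, the stronger 0.5 of regions, and each replicate list alone. Joining overlapping regions and leaving out those with TTAGGC were added after seeing the data.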

Additional observations from a re-analysis of the deposited data

How the results depend on the processing

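No test was made, so only values can move. With a flank of 10000 bp, 1 gene (snf-11) gained an IDR region and the strongest pooled signal became 234.1, the region 710 bp outside its window. The gene body alone held 13 pooled regions in place of 26, and the stronger 0.5 of the pooled list held 16. Without regions that hold TTAGGC the strongest signal was 53.8, at lim-6 in place of unc-25. A promoter from 500 bp upstream to 200 bp downstream left 1 gene (unc-47) in place of 3. With a replicate left out, 16 to 23 of the 26 pooled regions were matched, against 13 in both. GCGTG was in the strongest region of 0 genes within 50 bp of the summit, of 4 within 250 bp and of 4 within the whole region, in place of 2. At lim-6, a flank of 2000 bp gave 38.7 in place of 53.8. The cause of these shifts was not tested beyond the change of window or list itself. Under the other flanks, overlaps and lists tried, counts stayed within 1.5 times. Depth is not given, so an absent region is one not called, and 2 replicates give no error for a signal.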
